A study of Homo sapiens with 117 samples.

Results

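CTCF binding was compared between DIvA cells carrying IDH1 R132H that overexpressed the TET1 catalytic domain (TET1 CD) and IDH1 R132H cells with no construct, both after double-strand breaks (DSBs) had been induced. The comparison held 6 CTCF ChIP-seq peak lists, 2 with TET1 CD and 4 without a construct, of 24 CTCF ChIP-seq samples with a peak list and 117 samples in the whole series. DIvA cells derive from the U2OS osteosarcoma line and express the restriction enzyme AsiSI fused to an estrogen receptor domain. All 6 samples were treated with 300 nM 4-OHT for 4 h, which brings the enzyme into the nucleus (+DSB). IDH1 R132H or IDH1 WT was introduced by lentivirus, and nothing in the sources says whether a line was 1 clone. The 4 lists from IDH1 WT +DSB cells were used only to ask whether sites gained with TET1 CD were sites of WT cells, and lists with the catalytically dead domain (TET1 dCD) or without 4-OHT (-DSB) are given as background.

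CTCF is a zinc-finger protein that binds a long DNA motif, stops cohesin as it extrudes loops and so marks the borders of chromatin domains. Methylation of a CpG within its motif can block binding. TET enzymes oxidise 5-methylcytosine, the first step of active demethylation, and the 2-hydroxyglutarate made by mutant IDH1 inhibits them, so added TET1 CD is a way to counter hypermethylation in IDH1 mutant cells. DNA methylation was not measured in these peak lists.

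The motif searched was CCANNAGNNGGC on both strands within 50 bp of a site. A CpG can follow this core at its last base. The early motif position at which methylation is best known to hinder CTCF is fixed as CCA in the letters searched and so cannot hold a CpG here. The sequences below are GRCh38 reference bases around the core, which stands in capitals, written 5′ to 3′ on the strand of the core. The first set belongs to sites that were higher with TET1 CD, shown because 3 of them lack a CpG after the core and the sites at SGPP1 and FAM234B have it.
WSB1 (nearest gene), chr17:27007911-27007951, minus strand: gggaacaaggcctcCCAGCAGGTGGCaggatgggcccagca
ZNF609 (intron), chr15:64681612-64681652, minus strand: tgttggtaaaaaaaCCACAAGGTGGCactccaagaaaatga
LAMA1 (intron), chr18:7022367-7022407, minus strand: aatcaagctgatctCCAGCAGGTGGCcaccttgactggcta
SGPP1 (promoter), chr14:63728225-63728265, plus strand: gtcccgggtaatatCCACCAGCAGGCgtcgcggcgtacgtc
FAM234B (promoter), chr12:13044591-13044631, plus strand: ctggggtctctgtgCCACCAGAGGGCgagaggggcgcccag
The next set belongs to sites that were lower with TET1 CD, with a CpG after the core at GRIK5, ARHGEF5 and ALPI.
LINC02203 (nearest gene), chr15:21730685-21730725, minus strand: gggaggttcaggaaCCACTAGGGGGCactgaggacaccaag
IGLL5 (nearest gene), chr22:22788348-22788388, plus strand: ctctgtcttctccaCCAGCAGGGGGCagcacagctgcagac
GRIK5 (intron), chr19:42028392-42028432, plus strand: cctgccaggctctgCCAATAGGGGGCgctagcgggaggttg
ARHGEF5 (intron), chr7:144369433-144369473, minus strand: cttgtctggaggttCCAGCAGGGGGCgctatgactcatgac
ALPI (nearest gene), chr2:232446388-232446428, plus strand: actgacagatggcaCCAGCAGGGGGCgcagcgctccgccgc
KIZ (nearest gene), chr20:21048980-21049020, plus strand: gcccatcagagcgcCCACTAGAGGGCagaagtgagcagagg
The last pair lies in an intron of PDGFRA and carries the summit shift described further on.
PDGFRA, gained summit, chr4:54233451-54233491, minus strand: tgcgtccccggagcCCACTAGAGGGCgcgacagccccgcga
PDGFRA, lost summit, chr4:54234411-54234451, minus strand: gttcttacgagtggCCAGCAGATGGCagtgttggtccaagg

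The libraries of the groups differed in ways that the construct cannot be told apart from. The TET1 CD lists held 111558 and 115419 peaks, and the 4 R132H lists held 277568 to 348469. The depth recovered from the steps of the fold values was 34.6 M and 41.7 M reads against 23.7 M to 34.6 M reads. The shortest peak, which the caller sets to the fragment length, was 194 bp in both TET1 CD lists and 121 to 127 bp in the R132H lists. Reads at shared summits differed between TET1 CD replicates 1 and 2 by 0.617 times the variance that counting noise gives, and between R132H replicates 3 and 4 by 1.002 times, so each pair was counted as 1 sample. This left 1 TET1 CD sample against 3 R132H samples, and p-values measure the spread among the R132H samples only, which may be technical. The list labelled TET1 dCD -DSB replicate 3 differed from the TET1 CD +DSB lists by 0.918 and 0.951 times the counting variance, within sampling noise, whereas TET1 dCD -DSB replicates 1 and 2 differed from that same replicate 3 by 5.21 and 5.42 times. The peak names written inside the TET1 CD +DSB lists number them as runs 3 and 4 of that condition, and runs 1 and 2 of TET1 CD +DSB are the names found in the first and second TET1 dCD -DSB lists. Groups here follow the labels, and values with the other reading are given beside the first counts. Coding exons of TET1, IDH1 and ESR1, where an expressed cDNA can leave reads, held 0 peaks in either TET1 CD list and no peak above 4.9-fold in any list, so the construct could not be checked in this way.

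At an equal size of 20000 peaks per list, most CTCF sites were the same in both groups. Overlap of the lists was 84.8 to 87.2% between TET1 CD and R132H, 92.5 to 94.6% among R132H lists and 96.7% between both TET1 CD lists. Joining summits within 100 bp gave 24670 sites, of which 15820 were found in all 6 lists. Sites found in both TET1 CD lists and in no R132H list are called gained and numbered 1434, or 5.81% of all sites. Sites found in all 4 R132H lists and in neither TET1 CD list are called lost and numbered 1361, or 5.52%. With the lists that carry the peak names of TET1 CD runs 1 and 2 in place of the labelled ones, 490 sites were gained and 454 lost, and with all 4 such lists 202 and 238.

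Few gained or lost sites lacked a peak within the 40000 highest of the other group. The peak of rank 20000 had a fold value, the peak's reads over the background, of 29.25 and 30.05 in the TET1 CD lists and 15.5 to 17.96 in the R132H lists. Of the 1434 gained sites, 1121 had a peak of rank 25000 or better in at least 1 R132H list, and 41 had none within the 40000 highest peaks. Of the 1361 lost sites, 681 ranked 25000 or better in at least 1 TET1 CD list and 139 lay beyond 40000. Gained sites had a median fold value of 35.0 and 35.8 in the TET1 CD lists and of 10.5, 10.2, 12.1 and 12.6 in R132H replicates 1 to 4. The median rank of gained sites was 27028, 27347, 24247 and 24359 in R132H replicates 1 to 4.

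**Figure D1:**
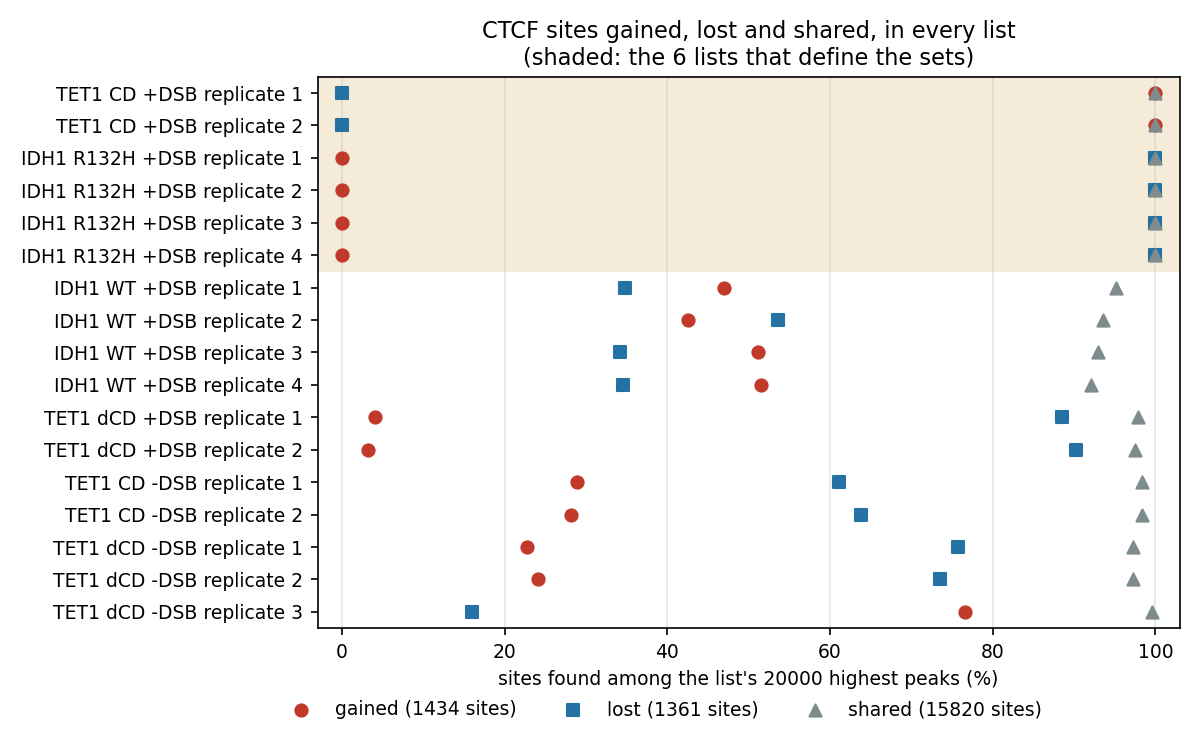
Percent of the gained (circles), lost (squares) and shared (triangles) sites found among the 20000 highest peaks of each list, with 1 row per list and the 6 lists that define the sets shaded. Gained sites were found in 42.6 to 51.5% in the IDH1 WT lists, 3.2 and 4.0% in the TET1 dCD +DSB lists and 76.6% in TET1 dCD -DSB replicate 3.

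The WT lists held about as many gained sites as they lacked. Gained sites were found among the 20000 highest peaks at 47.0, 42.6, 51.1 and 51.5% in IDH1 WT +DSB replicates 1 to 4. Lost sites were found there at 34.8, 53.6, 34.2 and 34.5%, and shared sites at 92.1 to 95.2%. In WT replicates 1, 3 and 4 more gained than lost sites were therefore present, and in replicate 2 the order was the opposite. WT replicates 1, 3 and 4 differed from each other by at most 0.976 times the counting variance, and were counted as 1 sample. That ratio covers shared summits of 20 to 50 reads only, and the replicates can differ elsewhere. All 4 WT lists held 446 gained sites (31.1%) and none held 514 (35.8%). Of the lost sites, 373 (27.4%) were in all 4 WT lists and 551 (40.5%) in none. Both sets were defined against the same R132H lists, so these shares are counts with no test.

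Presence in WT cells differed by sequence class in the gained, lost and shared sets alike. The 243 gained sites at CpG-rich promoters, with 10 or more CpGs in 201 bp and within 1 kb of a protein-coding start, were found at 49.4, 41.6, 76.5 and 79.4% in WT replicates 1 to 4. The 311 gained sites outside promoters with no CpG in the window were found at 33.4, 31.8, 27.3 and 25.1%. The same classes were found in WT at 48.1 to 77.8% and 19.7 to 33.8% of lost sites, and at 98.2 to 99.4% and 78.8 to 89.7% of shared sites. In TET1 dCD -DSB replicate 3 both classes were found at similar shares, 73.7 and 79.4%.

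The share of gained sites found in the other 11 lists moved with the shortest peak. It was 3.2 to 4.0% in the 2 lists with a shortest peak of 118 and 119 bp, 22.7 to 42.6% in the 5 lists with 139 to 143 bp and 47.0 to 76.6% in the 4 lists with 172 to 191 bp. Lost sites went the other way, at 88.5 to 90.2% and 53.6 to 75.7% in the first lists and at 218 to 474 of 1361 sites in the last. In lists with the same label of construct, TET1 CD -DSB replicates 1 and 2 (143 and 141 bp) held 28.9 and 28.2% of gained sites, while TET1 dCD -DSB replicates 1, 2 and 3 (140, 139 and 172 bp) held 22.7, 24.1 and 76.6%. The part of fragment length in the result was not tested.

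Gained and lost sites differed in sequence and place. The CTCF core lay within 50 bp of 229 of 1434 gained sites, 22.6% of lost and 37.3% of shared sites, and of 30.8% of all sites, whereas 0.37% of windows 1000 bp away held it. Among sites with the core, a CpG followed it at 35 of 229 gained sites (15.3%), at 160 of 308 lost sites (51.9%) and at 36.2% of shared sites. Protein-coding promoters held 19.5% of gained and 4.6% of lost sites, against 10.9% of all. Sites with no CpG in 201 bp made up 21.9% of gained, 5.3% of lost and 10.0% of all sites. The other 6055 sites, found in only some lists of at least 1 group, had the core at 19.3%. A CpG followed it at 27.3% of those, 9.9% of the 6055 lay at promoters and 12.1% had no CpG. These features describe the sets and were not used to form them.

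CTCF site strength was then compared at each of the 24670 sites as the log2 fold value, quantile-normalised between lists, with limma on 1 against 3 samples. At an adjusted p under 0.05, 2967 sites (12.0%) were called, of which 862 (3.49%) were higher and 2105 (8.53%) lower with TET1 CD. The balance of directions depended on the setting, with 7478 higher and 2281 lower from lists of 50000 peaks and 5123 and 5152 with every list as a sample. With the lists carrying the peak names of runs 1 and 2 as TET1 CD, 108 sites were called, and with all 4 such lists 22. The median difference was 0.74 at the higher and -1.11 at the lower sites, with 205 rises and 1166 falls beyond 1 on the log2 scale. Both TET1 CD lists lay above all 4 R132H lists at 7828 sites (31.7%) and below them at 7372 (29.9%), whatever the test called. Gained sites had a median difference of 1.29 and lost sites of -1.17, a direction fixed by how the sets were formed. The median standard error was 0.49 at gained and 0.23 at lost sites, so rises at weak R132H sites had a larger error than falls.

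Promoters moved up and sites with a moderate number of CpGs moved down. At the 2696 sites at promoters the median difference was 0.28. Both TET1 CD lists lay above all 4 R132H lists at 57.0% of them and below at 12.8%, against 31.7 and 29.9% of all sites. At the 1926 promoter sites with 10 or more CpGs the median was 0.38 (65.8% above, 7.79% below). The 2384 CpG-rich sites outside promoters had a median of 0.01 (28.9% above, 28.2% below). The 2466 sites without CpG had a median of 0.19 (47.7% above, 18.1% below). At the 7253 sites with 3 to 5 CpGs it was -0.11 (21.0% above, 39.4% below). Sites whose core was followed by a CpG had a median of -0.10 (15.9% above, 42.0% below). Those with the core but without that CpG had -0.01 (28.4% above, 28.1% below). The median over all sites was 0.00, and counting any peak that covers a site changed none of these medians by more than 0.01.

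**Figure D2:**
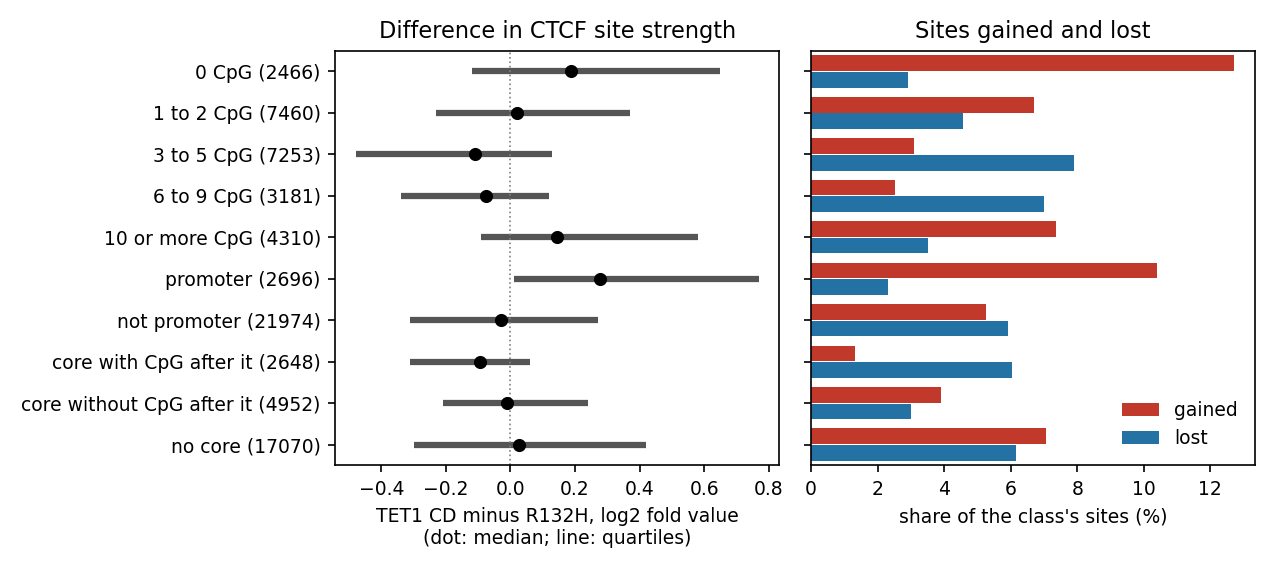
Left, median (dot) and quartiles (line) of the difference in log2 fold value, TET1 CD minus R132H, by CpG number, promoter and core (sites in parentheses). Right, percent of the sites of each class gained or lost. Promoters (median 0.28) and sites with 0 CpG (0.19) lie right of 0, and sites with 3 to 5 CpGs (-0.11) lie left of it.

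The same classes can be read in every list as the median level minus the R132H mean. At promoters it was 0.24 in both TET1 CD lists, -0.05 to 0.07 in the R132H lists, 0.16 to 0.38 in the WT lists and -0.05 to -0.04 in the TET1 dCD +DSB lists. In TET1 CD cells without DSBs it was 0.04 in both lists. It was -0.01 in TET1 dCD -DSB replicates 1 and 2, whose peak names are those of TET1 CD +DSB runs 1 and 2, and 0.20 in replicate 3, which is within counting noise of the TET1 CD +DSB lists. The promoter rise is therefore not seen in the first pair of lists if their peak names are taken as right. At sites without CpG it was 0.18 and 0.19 with TET1 CD, -0.10 to 0.01 in WT, 0.08 to 0.10 with TET1 CD -DSB, 0.07 to 0.08 in TET1 dCD -DSB replicates 1 and 2 and 0.18 in replicate 3. WT lists were therefore high with the TET1 CD lists at promoters and not at sites without CpG. At sites with 3 to 5 CpGs it was -0.10 in both TET1 CD lists, -0.01 to 0.02 in R132H and -0.12 to -0.08 in WT. There it was 0.02 with TET1 dCD +DSB, -0.04 with TET1 CD -DSB and -0.06 to 0.0 with TET1 dCD -DSB. At cores followed by a CpG it was -0.09 in both TET1 CD lists, -0.01 to 0.01 in R132H, -0.05 to -0.03 in WT, -0.01 in all TET1 CD -DSB and TET1 dCD +DSB lists, -0.03 in TET1 dCD -DSB replicates 1 and 2 and -0.07 in replicate 3.

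The greatest differences came from where the summit lay inside a wide peak. The highest peaks had a median length of 1299 and 1339 bp in the TET1 CD lists and 916 to 1006 bp in the R132H lists, and a wide peak can cover several sites while having 1 highest summit. The strength was therefore also taken from any peak that covers the site. By that measure 5949 sites were called, 2355 (9.55%) higher and 3594 (14.6%) lower, and 835 higher and 1856 lower calls were common to both measures. Among the 233 sites with a difference beyond 3 on the log2 scale, 190 (81.5%) differed by less than 1 by any covering peak. Over all sites, 202 called sites changed sign between the measures. Over all gained sites only 44 (3.1%) lay under one of the 20000 highest R132H peaks, and 121 lost sites (8.9%) under a TET1 CD peak of that rank, so the shifts touched the extremes more than the sets.

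PDGFRA, a receptor tyrosine kinase gene next to a CTCF insulator long studied in IDH mutant glioma, shows such a shift. At chr4:54233497 in its intron the fold value was 87.5 and 81.6 in the TET1 CD lists, 52.7, 41.8, 51.6 and 59.8 in the WT lists, and no R132H list had a summit. At chr4:54234444, 947 bp away, it was 65.2, 72.2, 72.6 and 73.8 in the R132H lists with no summit in any TET1 CD or WT list. The summit differences were 5.06 ± 0.78 (SE, limma adjusted p = 0.020) and -4.64 ± 0.14 (adjusted p = 0.00013). By the peak that covers both positions, the difference was 0.08 ± 0.07 (adjusted p = 0.44). The summits of both sites carried the core, with a CpG after it at the first and not at the second. TET1 dCD -DSB replicate 3 had its summit at the first position, at 79.1-fold, and the TET1 dCD +DSB and TET1 CD -DSB lists had theirs at the second. TET1 dCD -DSB replicates 1 and 2, with the peak names of TET1 CD +DSB runs 1 and 2, also had theirs at the second, at 50.4 and 46.2-fold.

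Of the 30 sites with the greatest summit differences, 10 rises and 10 falls with the core and 5 of each regardless of it, 28 differed by less than 1 by any covering peak. They lay in or near AKR1E2, PDZD7, ZBTB7C, COL22A1, ADAMTS17, WWC2, PSMD11, FCGR2A, TUBB8B, FAM72B, RNF216 and CWH43 among the rises, and near PLPP2, KRT17, CAPRIN2, YARS2, NDUFB4, CDKL2, KSR1, HID1, SPTB, OR4F16 and H3-7 among the falls. CWH43 and TUBB8B, like PDGFRA, appeared in both directions. The exceptions were SLC19A1 and a place on chromosome 21 nearest TPTE, which differed by 3.92 by summit and by -1.48 by the covering peak.

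**Figure D3:**
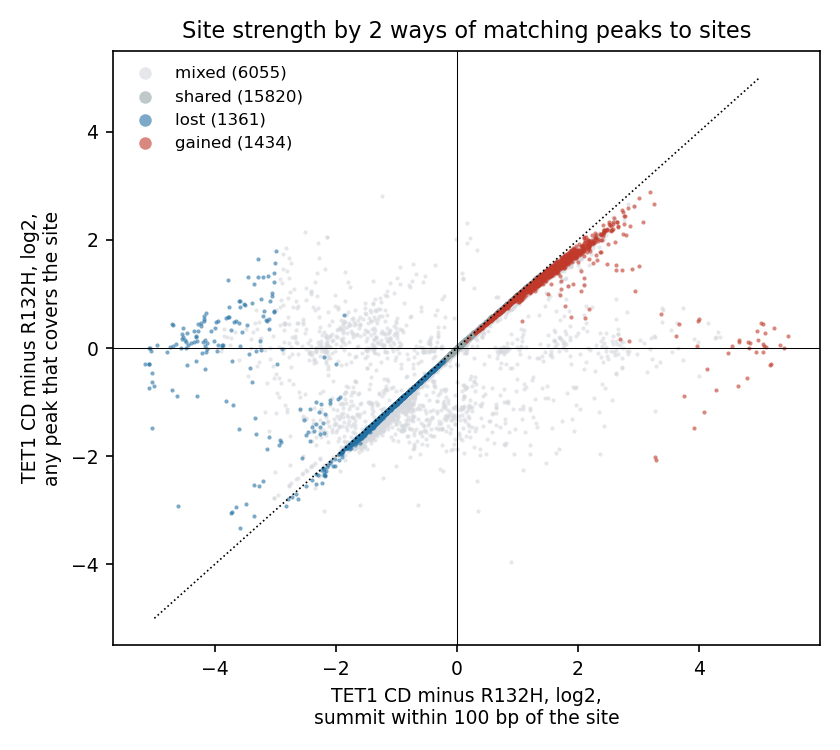
Difference in log2 fold value, TET1 CD minus R132H, with the summit within 100 bp of the site (x axis) or with any peak that covers it (y axis), 1 point per site, coloured by set. Sites off the diagonal near 0 on the y axis are summit shifts, such as the gained PDGFRA site at 5.06 on the x axis and 0.08 on the y axis.

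By the covering peak, the core sites with the greatest rises were 3 promoters and 7 sites in introns or outside protein-coding genes, with low values in R132H cells. This ranking was chosen after the values were seen. At the start of SLC19A1, the reduced folate carrier, in the 5′ end of the transcript at chr21:45542420, the fold value was 47.3 and 47.6 with TET1 CD and 5.23, 6.30, 6.24 and 8.79 in R132H replicates 1 to 4. It was 25.9, 18.04, 36.1 and 37.0 in the WT lists, between both groups before normalisation, but fold values differ in scale between lists. By rank, WT replicates 3 and 4 (12470 and 13797) stood near the TET1 CD lists (12284 and 12366). WT replicates 1 and 2 ranked 20750 and 19922. The difference was 2.66 ± 0.64 (SE, limma adjusted p = 0.011), and by summit it was 3.26 with an adjusted p of 0.057. All named sites were chosen among those where the TET1 CD lists lay outside the R132H range, so that separation is no result.

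In an intron of LAMA1, a laminin chain of basement membranes, at chr18:7022436, the fold value was 43.0 and 48.6 with TET1 CD against 7.61, 7.27, 10.9 and 6.11. The WT lists stood at 35.4, 20.2, 30.3 and 36.3, and the difference was 2.27 ± 0.54 (SE, limma adjusted p = 0.011). At the promoter of SGPP1, a sphingosine-1-phosphate phosphatase, 176 bp from its start at chr14:63728241, it was 49.0 and 47.6 against 9.99, 4.85, 11.7 and 9.94. There the WT lists, at 37.8, 24.97, 43.8 and 48.6, overlapped the TET1 CD lists. By rank, WT replicates 3 and 4 (6164 and 6423) stood above the TET1 CD lists (11469 and 12289). WT replicates 1 and 2 (12323 and 13064) stood below them. The difference between TET1 CD and R132H was 2.25 ± 0.56. In an intron of ZNF609, a zinc-finger gene, at chr15:64681615, it was 49.6 and 51.6 against 6.19, 8.24, 9.75 and 12.6, with 24.9, 13.9, 24.2 and 25.2 in WT. The difference at ZNF609 was 2.32 ± 0.50, and all 4 WT fold values lay between the groups before normalisation. By rank, WT replicate 2 (24468) stood below R132H replicate 4 (24163).

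The promoter of FAM234B at chr12:13044597 had 44.5 and 44.6 against 7.14, 6.78, 10.1 and 9.17, a difference of 2.18 ± 0.53 (limma adjusted p = 0.012). The intergenic site nearest WSB1 at chr17:27007939, 286137 bp from that gene, had 42.7 and 42.6 against 5.23, 4.85, 8.19 and 10.7, a difference of 2.44 ± 0.68 (limma adjusted p = 0.022). Both were gained sites with the core. TET1 dCD -DSB replicates 1 and 2 carry the peak names of TET1 CD +DSB runs 1 and 2. They had 7.31 and 7.39 at SLC19A1, 9.24 and 10.3 at LAMA1 and 11.55 and 10.3 at SGPP1. At ZNF609 they had 10.8 and 7.02, at FAM234B 8.85 and 8.13 and near WSB1 10.0 and 5.91. All these values lay within the R132H range before normalisation. TET1 dCD -DSB replicate 3 had 32.6 to 41.2 at the same sites. The sites near CDC7, NOVA1 and ICA1 and in an intron of MTREX had differences of 2.17 to 2.63 that missed the threshold by limma, at adjusted p of 0.051 to 0.12. Of the 10 core sites with the greatest rise, 3 lay at promoters and 3 had a CpG after the core.

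Regardless of the core, 4 of the 5 greatest rises were promoters. The promoter of TOMM7, a subunit of the mitochondrial import channel, had 40.4 and 45.3 with TET1 CD and 4.76, no peak, 7.02 and 8.03 in R132H, with 19.4, 9.91, 19.6 and 21.8 in WT. That of NQO2, a quinone reductase, had 50.2 and 49.8 against no peak, 5.81, 14.1 and 10.3, with 32.6 to 41.4 in WT lists other than replicate 2, at 19.4. Where a list had no peak, its lowest deposited fold value was used, so the differences of 2.89 ± 0.89 and 2.77 ± 0.78 (limma adjusted p = 0.034 and 0.024) depend on that value. VSTM2B, in an untranslated stretch of an exon near its start, had 67.4 and 65.4 against 8.09, 5.81, 17.95 and 8.03 by the covering peak (2.82 ± 0.47, limma adjusted p = 0.0017), with no TET1 CD summit at that site.

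**Figure D4:**
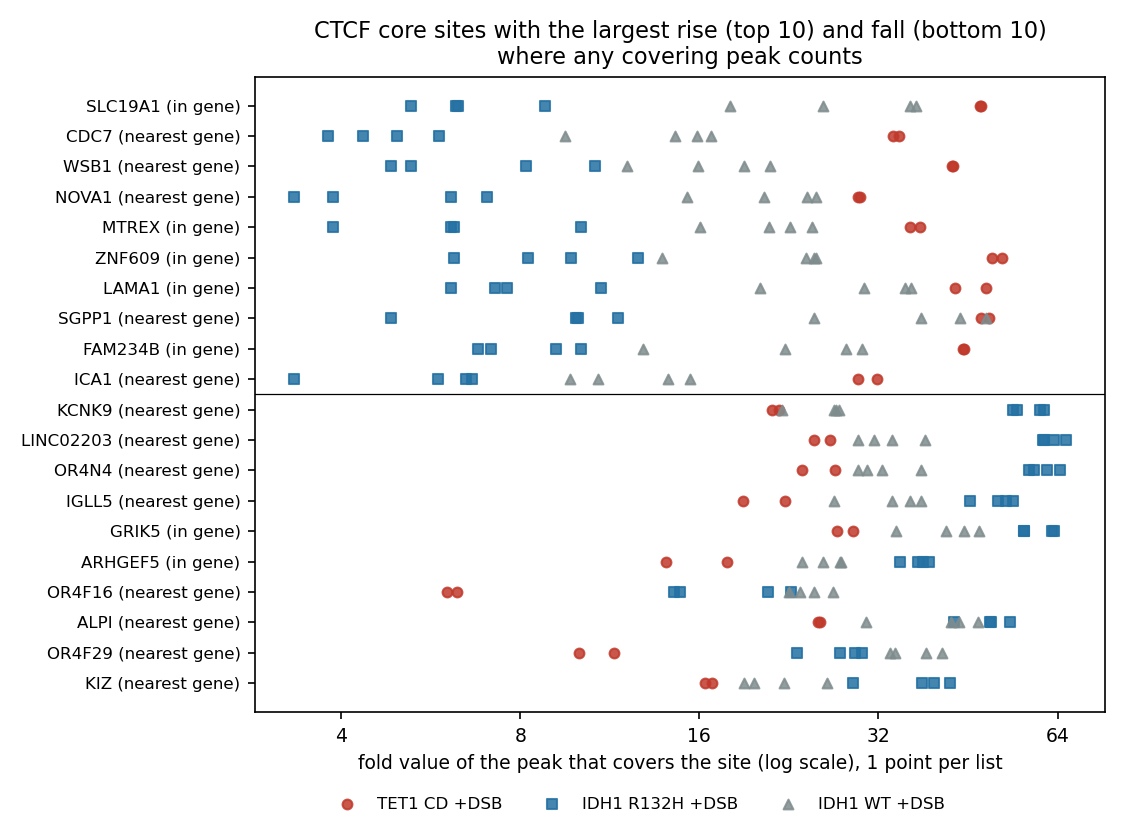
Fold value of the covering peak on a log axis in each TET1 CD (circles), R132H (squares) and WT list (triangles) at the 10 core sites with the greatest rise (top) and fall (bottom). At SLC19A1 the TET1 CD lists stand at 47.3 and 47.6 and the R132H lists at 5.23 to 8.79, and at GRIK5 the order is the reverse.

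The core sites with the greatest falls differed by -1.95 to -1.58, a smaller size than the rises of 2.17 to 2.66. Their standard errors were 0.12 to 0.38, against 0.50 to 1.06 at the rises. Both sets were picked by the size of the difference outside the R132H range. In an intron of GRIK5, a kainate receptor subunit, at chr19:42028409, the fold value was 27.3 and 29.1 with TET1 CD and 56.2, 56.2, 63.2 and 62.7 in R132H replicates 1 to 4. The WT lists stood between them at 44.5, 34.3, 41.6 and 47.2. The difference was -1.72 ± 0.12 (SE, limma adjusted p = 3.4e-06), and the summit measure gave -1.71. In ARHGEF5, a guanine nucleotide exchange factor, at chr7:144369444, it was 14.1 and 17.8 against 38.1, 37.3, 34.7 and 39.0, with a difference of -1.67 ± 0.18 (limma adjusted p = 9.0e-05). WT lists held 23.8 to 27.6 there, also between the groups.

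Near ALPI, the intestinal alkaline phosphatase, at chr2:232446403, the fold value was 25.5 and 25.3 against 49.5, 53.3, 42.9 and 49.3, a difference of -1.62 ± 0.16 (limma adjusted p = 4.0e-05). Near IGLL5, an immunoglobulin lambda-like gene, at chr22:22788351, it was 18.9 and 22.3 against 52.3, 45.5, 53.8 and 50.8, a difference of -1.83 ± 0.15 (limma adjusted p = 8.4e-06). Near KIZ, a centrosomal protein gene, at chr20:21048985, it was 16.4 and 16.8 against 29.0, 39.7, 42.1 and 37.8, a difference of -1.58 ± 0.20 (limma adjusted p = 0.00029).

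Some falls lay in copied sequence, where reads of near-identical copies can be shared and the values are uncertain. The sites near LINC02203 and OR4N4, an olfactory receptor gene, on chromosome 15 carry the same bases around the core, and fell by 1.92 and by 1.89 on the log2 scale. Those near OR4F16 and OR4F29 on chromosome 1 also share their bases and fell by 1.64 and by 1.60, with 6.02 and 6.26 against 14.5 to 22.8 at the first. Regardless of the core, the greatest falls included sites nearest TPTE, near WEE2 and a pair of sites in an intron of CCDC200. At CCDC200, chr17:43271040, the fold value was 6.88 and 7.01 with TET1 CD against 67.6, 67.8, 58.1 and 58.1 in R132H and 14.5 to 15.7 in WT, a difference of -3.06 ± 0.16 (limma adjusted p = 6.4e-07). At WEE2 the R132H lists had 35.2, 34.4, 19.1 and 28.7, the WT lists 3.29 to 4.76 and the TET1 CD lists no peak.

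Sites were counted at the genes of 4 lists chosen for the study's questions, against 3.49% higher and 8.53% lower among all sites. For homologous recombination, which repairs DSBs from a sister chromatid, 9 of 19 genes had a site, and of 19 sites 3 (15.8%) were higher and none lower, with a median difference of 0.30 against 0.00 over all sites. ATM, the kinase that signals DSBs, was 0.89 ± 0.20 higher at its promoter, with 62.2 and 57.1 against 20.5, 19.4, 28.1 and 31.0. The called sites of ATM, STAG1 and DNMT3A were promoters with 10 or more CpGs. Over all 1926 sites of that class the median difference was 0.38. RAD51B, a homologous recombination gene, was higher at 2 intronic sites, by 0.60 (adjusted p = 0.024) and 0.48 (adjusted p = 0.027) in limma. The 14 sites of cohesin and CTCF genes, with a median of 0.26, had 1 (7.14%) called, at the start of STAG1, a cohesin subunit (0.59 ± 0.09, limma adjusted p = 0.017), with 92.4 and 85.4 against 46.2, 48.9, 55.0 and 60.4.

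Of the 12 sites at genes of DNA methylation and 2-hydroxyglutarate metabolism, 1 (8.33%) was higher and none lower, with a median of 0.19. It was the promoter of DNMT3A, a de novo DNA methyltransferase, at 78.9 and 77.1 with TET1 CD and 26.7, 28.6, 46.4 and 43.6 in R132H (0.92 ± 0.21, limma adjusted p = 0.045). Of the 20 sites at loci where CTCF binding is known to depend on methylation, 1 (5.0%) was higher and 2 (10.0%) lower. The PDGFRA summit shift gave 1 call in each direction, and the other was an intronic site of the imprinted gene GRB10 (-0.42 ± 0.09, limma adjusted p = 0.043), at 59.1 and 60.1 against 60.4 to 67.8. The H19 sites, in the best known imprinting control region bound by CTCF, differed by 0.29, 1.61 and -1.13, with limma adjusted p of 0.36 to 0.59.

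The study used 2 AsiSI breaks, DSB1 at chr1:88992913-88992920 near RBMXL1 and DSB2 at chr20:32358509-32358516 in ASXL1. Both were placed here as the AsiSI sites nearest to the 4C primers, and the position printed in the study's text for the second is a different one. Of the 23 sites within 1 Mb of DSB1, 2 (8.7%) were higher and none lower, against 3.49 and 8.53% of all sites. They were the promoters of LRRC8C and LRRC8D, subunits of a volume-regulated anion channel. Both had 10 or more CpGs, and the 1926 promoter sites of that kind had a median difference of 0.38 genome-wide. LRRC8C had 81.7 and 74.9 with TET1 CD and 24.7, 20.8, 41.4 and 37.8 in R132H (1.14 ± 0.25, limma adjusted p = 0.042), and LRRC8D had 67.4 and 63.6 against 21.4, 22.8, 27.7 and 29.8 (0.98 ± 0.15, limma adjusted p = 0.020). The site nearest DSB1, 5946 bp away near RBMXL1, differed by -0.29 ± 0.18 (limma adjusted p = 0.30), with 36.4 and 39.6 against 23.8, 29.1, 33.6 and 32.5 before normalisation.

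Within 1 Mb of DSB2, 7 of 28 sites were lower and none higher, against 8.53% lower among all sites and 12.3% on chromosome 20. The greatest fall lay in an intron of MYLK2, skeletal muscle myosin light chain kinase, at chr20:31833591. It had 27.8 and 29.1 with TET1 CD, 39.97, 38.3, 38.6 and 45.9 in R132H and 41.9, 30.5, 41.9 and 46.7 in WT, and differed by -1.22 ± 0.12 (limma adjusted p = 0.0059). The others included sites near COX4I2 (-0.49), near and in DUSP15 (-0.80 and -0.27), in EFCAB8 (-0.61) and in BPIFB1 (-0.79). These differences are after quantile normalisation, since a TET1 CD list has a higher fold value than an R132H list at the same rank. The nearest site, in NOL4L, 126838 bp from DSB2, differed by 0.23 ± 0.20 (limma adjusted p = 0.44). Over the 347 sites within 10 kb of any AsiSI site, 16 (4.61%) were higher and 26 (7.49%) lower, against 3.49 and 8.53% of all sites. Of these sites 29 (8.36%) were gained and 9 (2.59%) lost, against 5.81 and 5.52%.

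At the 6 regions of those windows that the study assayed for methylation, the peaks differed in direction. The region in MYLK2, chr20:31833031-31834117, was the lost site just described. At chr20:32521604-32522205 the fold value was 16.9 and 21.8 with TET1 CD, 9.52, 7.27, 8.97 and 8.79 in R132H and 31.7, 17.6, 36.1 and 36.9 in WT, but its rank was beyond 20000 in both compared groups. At chr1:89524310-89524626 no TET1 CD list had a peak and the R132H lists had peaks of at most 4.76. The regions at chr1:89086324-89086670, chr1:89358313-89358638 and chr20:32674470-32674799 had peaks within the 20000 highest of all 10 lists. The first was higher with TET1 CD, at ranks 4629 and 5968 against 9675 to 10944 in R132H. At the second the ranks were 8817 and 8510 against 5308 to 9117 in R132H. At the third they were 19368 and 18205 against 15923 to 18386.

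The lost share differed by chromosome. On chromosome X 14.7% of 648 sites were lost and 3.7% gained, against 5.52 and 5.81% of all sites. The next highest lost shares were 8.45% on chromosome 10, 8.03% on chromosome 19 and 7.86% on chromosome 17, and the highest gained shares were 8.79% on chromosome 18, 8.02% on chromosome 14 and 7.97% on chromosome 7. At the 267 shared sites of chromosome X the median level minus the R132H mean was -0.17 and -0.15 in the TET1 CD lists and -0.01 to 0.02 in the R132H lists. It was -0.15 to -0.29 in WT, -0.10 to -0.18 in all TET1 lists without DSBs and -0.02 and -0.01 with TET1 dCD +DSB. The fold values of a list use 1 genome-wide background, so copy number and CTCF binding cannot be told apart for a whole chromosome.

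**Figure D5:**
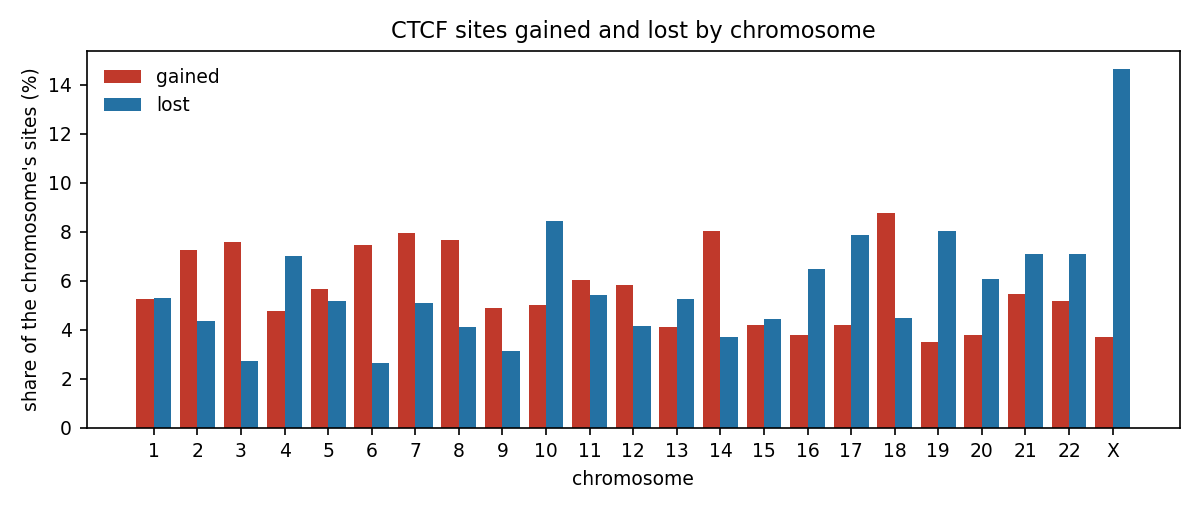
Percent of the sites of each chromosome that were gained or lost with TET1 CD. Chromosome X stands apart with 14.7% lost and 3.7% gained.

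The make-up of whole lists was compared over their 20000 highest peaks. The core lay under 33.5% of TET1 CD and 33.8% ± 0.33 (SD, n = 3) of R132H peaks (exact permutation p = 0.50). Promoters held 12.2% against 10.2% ± 0.47, a core followed by a CpG lay under 11.4% of peaks against 12.3% ± 0.12, and 21.4% against 19.9% ± 0.46 of AsiSI sites had a peak within 10 kb. Each of these 3 lay outside the R132H values with an exact two-sided permutation p of 0.25, the smallest that 1 against 3 samples allows, and 0.30 adjusted over 6 measures. The mean CpG number was 5.94 against 5.71 ± 0.12, and the windows of both breaks held 47 against 50.0 ± 1.0 summits, with the same p. No measure could pass 0.05 in this design.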

How the data were processed

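CTCF ChIP was done with an Abcam antibody and sequenced on an Illumina instrument. Per the study's reporting summary, the authors aligned reads to GRCh38 with Bowtie2 and called peaks per sample with MACS2, with input as the control. The submitters' notes name Bowtie2 2.3.4.1, which is not the version in that summary, and cutadapt 1.18, deepTools and hg38. Each fold value of a deposited list goes with 1 p-value, as it would with 1 background for the whole list. The deposited lists give the fold of each peak over background (a ratio), −log10 p-values and q-values, and a summit offset. Read totals were estimated from the steps of the fold values, with a genome of 2.7 Gb and the shortest peak as the fragment length. The depth given here depends on these assumptions. The 4C files of the series were not used here.

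The 20000 peaks with the highest fold per list on chromosomes 1 to 22 and X were taken, summits within 100 bp joined to sites, and each list given its highest peak with a summit there, or its lowest fold. At 1503 of 24670 sites (6.09%) a list was filled in this way. Log2 values were quantile-normalised and tested with limma 3.58.1 in R 4.3.3 (trend, Benjamini-Hochberg, threshold 0.05). Lists within counting noise of each other were averaged. Genes and promoters were taken from GENCODE 44, and CpGs counted in 201 bp. Repeats, planned as a feature, were not given because the genome was not masked. The features of the lists were compared by an exact permutation test. On simulated data for 24670 sites with 200 changed, 38% of log2 changes of 1 and 63% of changes of 2 were recovered, with 7 false calls. All simulated samples had the R132H spread, and the groups differed in nothing but the changed sites. The 7 therefore do not give the rate of false calls in the real lists, whose libraries differ between groups.

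The named sites are the 10 greatest rises and falls with the core and 5 of each regardless of it, where the TET1 CD lists lay outside the R132H range. The same ranking by covering peak, the members and the gene lists were chosen with earlier results of these data known. Alternatives were median centring, other list sizes, sites with a peak in all 6 lists, every list as a sample, a replicate block, covering peaks, leaving out lists and the lists named by their peak names. Python 3.11.15, numpy 2.4.6, pandas 2.3.3, pysam 0.24.0 and matplotlib 3.10.9 were used.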

Additional observations from a re-analysis of the deposited data

Results flagged for a closer look

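Lost sites were found at 53.6% in IDH1 WT +DSB replicate 2, apart from 34.2 to 34.8% in the other WT lists. Its shortest peak was 143 bp against 180 to 191 bp there. The other WT lists count as 1 sample, so how often chance gives such a gap cannot be said from them.

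Lists outside the comparison held gained sites that no R132H +DSB list had among its 20000 highest peaks. The TET1 dCD +DSB lists held 4.0 and 3.2%, the TET1 CD -DSB lists 28.9 and 28.2%, and TET1 dCD -DSB replicates 1, 2 and 3 held 22.7, 24.1 and 76.6%. The last of these lists is within counting noise of the TET1 CD +DSB lists. Which label it should carry was not tested.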

How the results depend on the processing

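The count of called sites depended on the setting. Against 2967 called (862 higher, 2105 lower), median centring gave 7775 (1994 and 5781), sites with a peak in all 6 lists 6283 (2681 and 3602), every list as a sample 10275 (5123 and 5152) and covering peaks 5949 (2355 and 3594). Lists of 10000 peaks gave 1435 (428 and 1007) and lists of 50000 gave 9759 (7478 and 2281), with more higher than lower calls. A block for the replicate number, shared by 2 lists per group, gave 8363 (4228 and 4135). Deviations of lists with the same number correlated at -0.003 and 0.0, and nothing in the labels ties the numbers. Leaving out 1 list at a time gave 2136 to 3200 calls (623 to 1080 higher, 1480 to 2120 lower). With the lists that carry the peak names of TET1 CD runs 1 and 2 there were 108 (16 and 92), and with all 4 such lists 22 (2 and 20). The cause was not tested.

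Gained and lost sites numbered 1434 and 1361. Lists of 10000 peaks gave 872 lost, lists of 50000 gave 8609 and 3515, all deposited peaks 8716 and 10567, and absence from the other group's 40000 highest peaks 41 and 139. The peak names gave 490 and 454 with runs 1 and 2, and 202 and 238 with runs 1 to 4. Leaving out 1 list gave 1572 to 1759 and 1473 to 1557. The mean over the 4 WT lists of gained sites found was 48.1%, and 52.3 and 52.7% with 10000 and 50000 peaks, 59.8% for sites absent from the 40000 highest, 76.6 and 81.2% by the peak names and 44.7 to 51.2% without 1 list. For lost sites it was 39.3%, and 19.4% with 50000 peaks, 24.6 and 12.6% by the peak names and 35.8 to 41.8% without 1 list.

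The differences of whole lists, TET1 CD minus R132H, moved with the list size. With 10000 and 50000 peaks against 20000, the core share was -2.95 and 2.93 against -0.31 percentage points, the share of all peaks with a core and a CpG after it -2.15 and 0.30 against -0.89, the mean CpG number 0.56 and 1.03 against 0.23, promoters 3.33 and 7.03 against 1.96, AsiSI sites 0.72 and 11.1 against 1.59 and summits at both breaks -0.17 and 24.5 against -3.0. Of the alternative values, 92 kept direction and size and 57 moved. With 50000 peaks the shares of all peaks with a core and the break summits changed sign. As a share of peaks with the core, a CpG after it was lower with TET1 CD at 10000 (40.5 to 40.9 against 42.7 to 43.6%), 20000 (at most 34.2 against 36.4%) and 50000 peaks (29.4 against 32.2 to 33.0%).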
